A study of Caenorhabditis elegans with 9 samples.

Results

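The saposin-like proteins described here are the products of the 10 Caenorhabditis elegans genes spp-1 to spp-10, taken by gene symbol from the 17118 genes that have an array probeset of their own or from the probesets shared between genes. Of the 10 genes, 6 (spp-1, spp-4, spp-6, spp-7, spp-8 and spp-10) have at least 1 probeset assigned to them alone. The other 4 (spp-2, spp-3, spp-5 and spp-9) were measured only through probesets that are also assigned to another gene, so that their own transcript cannot be told apart from that of the partner. All probesets of the 10 genes were used, 13 in all, of which 10 belong to a single gene and 3 are shared.

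Saposin-like proteins are small, mostly helical proteins held together by disulfide bonds, and they bind to lipid membranes. In mammals the saposins are cut from a common precursor, prosaposin, and present sphingolipids to hydrolases in the lysosome, while granulysin and NK-lysin of lymphocytes and the amoebapores of Entamoeba open pores in microbial membranes. The pore-forming members of the worm are called caenopores. Some of them belong to the antimicrobial defence of the intestine, where ingested bacteria are killed and digested. The RNA examined here came from whole worms grown in CeHM, a liquid medium without bacteria.

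Wild type N2 worms were left unexposed (control) or were exposed to sodium arsenite at 0.003% w/v (low dose) or 0.03% w/v (high dose) for 6 h at 22 °C, with 3 biological replicates per group and 1 Affymetrix C. elegans array per sample. The labels give the L3 larval stage, while the methods give L1 and the results of the study give L4. The labels call the samples biological replicates and the methods describe a separate RNA isolation for each. The p-values weigh a difference against the spread among these replicates, pooled over the 3 groups. The values are the authors' log2 signals, whose array medians lay between 8.42 and 8.52 and whose highest value was 16.44. Across genes, arrays of the same group had pairwise correlations of 0.940 to 0.952, where genes do not count as independent replicates. A gene passed the test at a change of at least 1.2 fold and a Benjamini-Hochberg adjusted p of at most 0.05 over all genes in limma, and a mean below 6.26, the limit of the dimmest 25% of genes, is called dim. The 3 arrays per group limit the precision.

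At the high dose of arsenite the signal of several saposin-like genes was lower than in control worms, and none of the 10 genes passed the test upward. The level of spp-4 fell 4.13 fold, that of the caenopore gene spp-1 fell 1.77 fold, and the shared probesets of spp-2 with spp-3 and of spp-9 with spp-21 fell 1.58 fold and 1.48 fold. Of these 4 calls, that of spp-1 was lost with the mean of its probesets and that of spp-9 with spp-21 in 9 of 19 alternatives, while the other two passed in every alternative run. The level of spp-10, the worm gene related to mammalian prosaposin, lay within 0.11 of control on the log2 scale at the high dose by each of its 3 probesets. At the low dose 0 of the 6 genes with a probeset of their own passed the test. Of these 6 genes, 2 (33.3%) were down regulated and 0 up regulated at the high dose, against 1878 (11.0%) and 1540 of all 17118 genes tested, 20.0% in either direction. The median log2 difference of the 6 genes was -0.42, against -0.05 for all genes, and it was -0.25 with the mean of each gene's probesets and -0.19 over every probeset of a single gene. Counted by probeset, 4 of 13 fell, the same 4 as above, and 0 rose, against 9.77% and 8.60% of all 22548 probesets, 18.4% in either direction. The high dose and control arrays did not overlap for 7 of the 13 probesets, all lower at the high dose, against 20.5% of all probesets in that direction. These shares rest on 6 genes and 13 probesets, and probesets of the same gene are not independent.

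**Figure D1:**
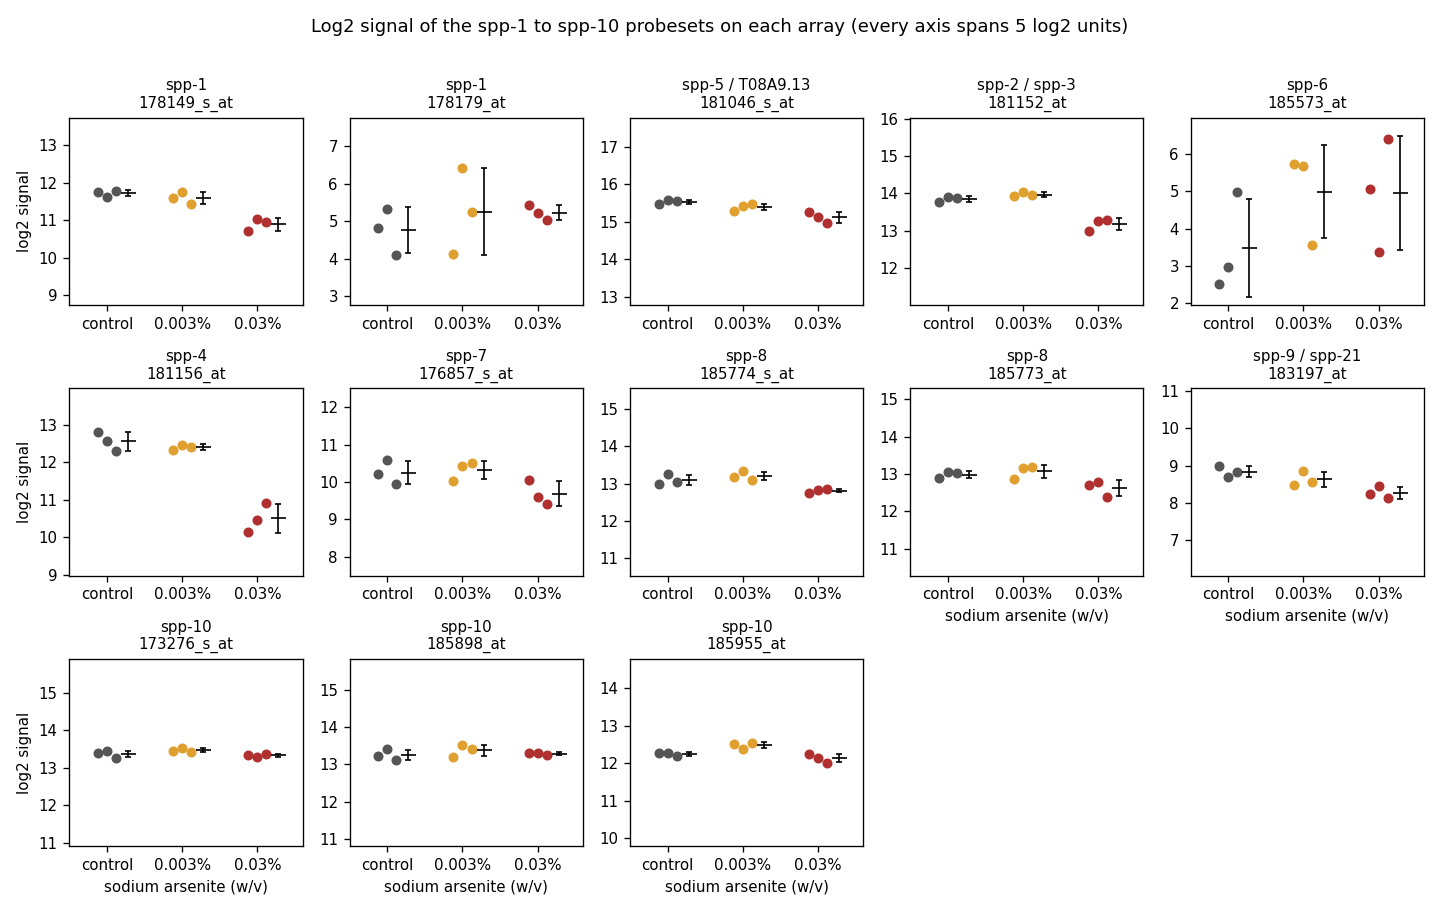
Log2 signal (vertical axis, 5 log2 units in every panel) of each of the 13 probesets of spp-1 to spp-10 on each array, with control, 0.003% and 0.03% sodium arsenite from left to right. Points are single arrays and the bars give mean and SD (n = 3). The high dose arrays of spp-4, at 10.15 to 10.92, lie below all other arrays of that probeset, while the panels of spp-10 stay nearly level and the points of spp-6 scatter widely.

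The genes spp-2 to spp-6 stand side by side on chromosome X in the RefSeq assembly WBcel235, in the order spp-3, spp-2, spp-6, spp-4, spp-5. The strongest change among the members was found there. On the 3 control arrays spp-4 read 12.80, 12.56 and 12.31, on the low dose arrays 12.33, 12.47 and 12.42, and on the high dose arrays 10.15, 10.46 and 10.92. All high dose arrays lay below all others by more than 1 log2 unit, while the low dose arrays lay among the control arrays. The mean of spp-4 was 10.51 ± 0.39 in high dose worms and 12.56 ± 0.25 in control worms (SD, n = 3 each), a log2 difference of -2.05 (SE 0.22, 95% interval -2.55 to -1.54, adjusted p = 5.70e-04 from limma). Only 1.34% of all genes had a log2 difference at or below that of spp-4, 230 genes including spp-4. The call held under all 20 alternative settings, with log2 differences of -2.25 to -1.86.

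The neighbours spp-3 and spp-2 share a probeset, which read 13.77, 13.90 and 13.88 in control worms, 13.93, 14.04 and 13.96 at the low dose and 13.00, 13.27 and 13.30 at the high dose. The high dose arrays again lay below all others, and the low dose arrays lay just above all control arrays. The high dose mean was 13.19 ± 0.16, against 13.85 ± 0.07 in control worms (SD, n = 3 each), a log2 difference of -0.66 (SE 0.12, 95% interval -0.94 to -0.39, adjusted p = 0.00746 from limma over all probesets). It passed in all 19 alternatives. How much of this signal came from spp-2 and how much from spp-3 cannot be told apart.

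The product of spp-5, caenopore-5, forms pores and kills bacteria, and the probeset of spp-5 is also assigned to T08A9.13, the next gene along the chromosome. It read 15.46, 15.58 and 15.55 in control worms, 15.29, 15.41 and 15.47 at the low dose and 15.27, 15.13 and 14.97 at the high dose. The high dose arrays lay below the control arrays without overlap. Their mean was 15.12 ± 0.15, against 15.53 ± 0.06 in control worms (SD, n = 3 each), a log2 difference of -0.41 (95% interval -0.68 to -0.13) that missed the threshold (adjusted p = 0.0505 from limma over all probesets). Over 19 alternatives its adjusted p ran from 0.00145 to 0.142 in limma. It passed in 4 of them, when the variance was not moderated (adjusted p = 0.0229), when the dimmest 25% (adjusted p = 0.0286) or the dimmer 50% of probesets (adjusted p = 0.0140) were left out, and with a variance trend and robust estimation in limma (adjusted p = 0.00145).

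Between these genes lies spp-6, whose probeset was dim. It read 2.53, 2.97 and 4.98 in control worms, 5.73, 5.68 and 3.56 at the low dose and 5.06, 3.37 and 6.39 at the high dose. The groups overlapped, and the log2 difference from control at the high dose was 1.45 (95% interval -0.89 to 3.78, adjusted p = 0.389 from limma). This interval holds falls as large as that of spp-1 as well as rises. In the alternatives that leave out the dim probesets spp-6 had no value.

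**Figure D2:**
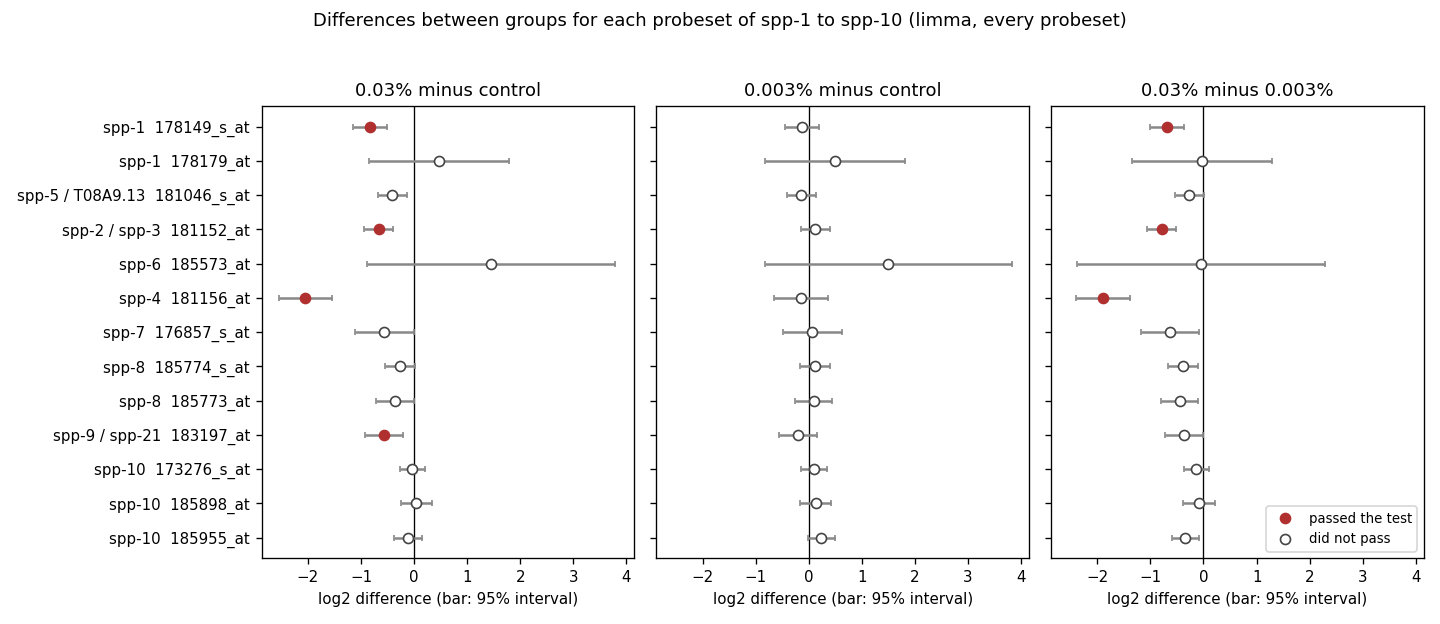
Log2 difference (horizontal axis) of each probeset of spp-1 to spp-10 for the high dose minus control, the low dose minus control and the high minus the low dose, with 95% intervals from limma. Filled points passed the test: 4 probesets, all lower, at the high dose against control, 0 at the low dose against control, and 3, all lower, at the high against the low dose.

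The gene spp-1, whose product is a caenopore that kills bacteria, has 2 probesets, of which the one with the suffix _s_at had the higher mean and stood for the gene. By this probeset spp-1 read 11.76, 11.62 and 11.77 in control worms, 11.58, 11.75 and 11.43 at the low dose and 10.70, 11.02 and 10.96 at the high dose. The high dose arrays lay below all others, and the low dose and control arrays overlapped. The high dose mean was 10.89 ± 0.17, against 11.72 ± 0.08 in control worms (SD, n = 3 each), a log2 difference of -0.83 (SE 0.14, 95% interval -1.14 to -0.51, adjusted p = 0.00471 from limma). The other probeset of spp-1 was dim and read 4.83, 5.34 and 4.11 in control worms, 4.12, 6.42 and 5.24 at the low dose and 5.44, 5.23 and 5.04 at the high dose. Its groups overlapped, and its high dose log2 difference was 0.47 (95% interval -0.84 to 1.79, adjusted p = 0.650 from limma over all probesets). Over the 9 arrays the 2 probesets of spp-1 correlated at -0.17. With the mean of both probesets the log2 difference of spp-1 was -0.18 and no longer passed (adjusted p = 0.759 from limma). In the other 19 alternatives, in which the higher probeset stood for the gene, spp-1 passed. The suffix _s_at marks probesets that may also detect related transcripts.

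The probeset of spp-9 and its neighbour on chromosome X, spp-21, read 8.99, 8.70 and 8.83 in control worms, 8.48, 8.86 and 8.56 at the low dose and 8.23, 8.46 and 8.13 at the high dose. The high dose arrays lay below all control arrays, and the low dose arrays overlapped with those of control. The high dose mean was 8.27 ± 0.17, against 8.84 ± 0.15 in control worms (SD, n = 3 each), a log2 difference of -0.57 (SE 0.16, 95% interval -0.93 to -0.21, adjusted p = 0.0418 from limma over all probesets). This call was lost in 9 of 19 alternatives, with adjusted p values of 0.00646 to 0.129 in limma over the alternatives. It did not pass without low dose replicate 3 (adjusted p = 0.0651), high dose replicate 1 (0.116) or 3 (0.122), or control replicate 1 (0.129), 2 (0.0630) or 3 (0.101) in limma, nor in a fit of high dose and control arrays alone (0.0599), with the replicate block (0.0818) or at 1.5 fold.

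On chromosome IV spp-10, hlh-12 and spp-8 follow each other by start position. Both probesets of spp-8 gave small differences. By its _s_at probeset spp-8 read 12.98, 13.25 and 13.03 in control worms, 13.18, 13.33 and 13.10 at the low dose and 12.75, 12.83 and 12.85 at the high dose. By its other probeset spp-8 read 12.88, 13.04 and 13.03 in control worms, 12.86, 13.17 and 13.18 at the low dose and 12.70, 12.78 and 12.39 at the high dose. By both probesets the high dose arrays lay below all others. The log2 differences from control were -0.27 (95% interval -0.55 to 0.00, adjusted p = 0.161 from limma) and -0.36 (95% interval -0.71 to -0.01, adjusted p = 0.159 from limma over all probesets), and neither passed the test. The 2 probesets of spp-8 correlated at 0.74 over the 9 arrays.

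For spp-7, also on chromosome IV, the arrays read 10.21, 10.59 and 9.96 in control worms, 10.03, 10.43 and 10.50 at the low dose and 10.05, 9.61 and 9.41 at the high dose. A single high dose array lay within the range of the control and low dose arrays, and the log2 difference of spp-7 was -0.56 (95% interval -1.11 to -0.01, adjusted p = 0.151 from limma). It passed in 2 of 20 alternatives, with the dimmer 50% of genes left out and with the variance trend, and the adjusted p values over the alternatives ran from 0.0354 to 0.361 in limma.

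The level of spp-10 at the high dose was close to that in control worms by each of its 3 probesets. By the _s_at probeset, which stood for the gene, spp-10 read 13.40, 13.45 and 13.27 in control worms, 13.46, 13.54 and 13.42 at the low dose and 13.34, 13.30 and 13.38 at the high dose. The groups overlapped at the high dose against control, with means of 13.34 ± 0.04 in high dose and 13.37 ± 0.09 in control worms (SD, n = 3 each), a log2 difference of -0.03 (95% interval -0.27 to 0.20, adjusted p = 0.865 from limma). By a further probeset spp-10 read 13.22, 13.40 and 13.12 in control worms, 13.21, 13.51 and 13.40 at the low dose and 13.31, 13.30 and 13.26 at the high dose. Here the groups overlapped, and the high dose difference was 0.04 (95% interval -0.25 to 0.34). By the third probeset spp-10 read 12.28, 12.28 and 12.18 in control worms, 12.50, 12.39 and 12.55 at the low dose and 12.24, 12.15 and 12.01 at the high dose. The high dose and control arrays overlapped, with a difference of -0.11 (95% interval -0.37 to 0.14), and the low dose arrays lay above both. Over the 9 arrays the 3 probesets correlated at 0.37 to 0.67. These intervals leave room for changes of up to 0.37 on the log2 scale and not for a fall of the size seen for spp-4.

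The low dose of arsenite gave no call among the members. The log2 differences of the 6 genes from control were -0.15 for spp-4, -0.13 for spp-1, 0.07 for spp-7, 0.10 for spp-10 and 0.12 for spp-8, and the dim spp-6 had a difference with a standard error of 1.00. Their median was 0.08, against -0.01 for all genes. In limma 0 of 6 genes and 0 of 13 probesets passed, against 1.55% of all genes and 1.33% of all probesets, 0 of the 6 genes had an unadjusted p under 0.05, against 11.7% of all genes, and 0 of 6 passed without moderation of the variance. The 95% interval of the low dose difference was -0.65 to 0.36 for spp-4, -0.45 to 0.19 for spp-1 and -0.13 to 0.33 for spp-10. A low dose fall of spp-4 as large as that at the high dose therefore lies outside the interval, while a fall of up to 0.65 lies within it. For the third probeset of spp-10 the low dose difference was 0.23 (95% interval -0.02 to 0.49, adjusted p = 0.501 from limma over all probesets), and for the probeset of spp-2 and spp-3 it was 0.12 (95% interval -0.15 to 0.40, adjusted p = 0.785 from limma over all probesets). These were the 2 of 13 probesets without overlap between the groups, both higher at the low dose, against 8.10% of all probesets in that direction.

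Among the members the 2 doses differed most in spp-4. Its log2 difference between the high and the low dose was -1.90 (SE 0.22, 95% interval -2.40 to -1.39, 3.73 fold lower, adjusted p = 0.00113 from limma). For spp-1 it was -0.69 (SE 0.14, 95% interval -1.01 to -0.38, adjusted p = 0.0119 from limma), and with the mean of its probesets it was -0.36 and did not pass (adjusted p = 0.501 from limma). The probeset of spp-2 and spp-3 had a difference of -0.78 (SE 0.12, 95% interval -1.06 to -0.51, adjusted p = 0.00421 from limma over all probesets). Of the 6 genes, 2 passed, both lower at the high dose, against 9.49% of all genes lower and 16.8% in either direction, and of the 13 probesets 3 passed, all lower, against 8.42% of all probesets lower and 15.5% in either direction. For spp-8 the log2 difference between the doses was -0.39 (adjusted p = 0.0630 from limma), with adjusted p values of 0.00833 to 0.167 over 20 alternatives in limma, of which 5 passed the threshold. The spp-9 and spp-21 probeset, at -0.36, did not pass here (adjusted p = 0.179 from limma over all probesets), and neither did spp-7, at -0.63 (adjusted p = 0.123 from limma), nor the spp-5 probeset, at -0.27 (adjusted p = 0.189 from limma over all probesets). For spp-10 the differences between the doses were -0.14, -0.09 and -0.35 by its 3 probesets, the last with an adjusted p of 0.0776 from limma over all probesets. All 13 probesets had negative differences between the doses. At gene level all 6 genes did, against 8718 of all 17118 genes. The differences of the dim spp-6 (-0.05, 95% interval -2.38 to 2.28) and the dim spp-1 probeset (-0.03) were near 0. For 9 of the 13 probesets the groups did not overlap, against 17.2% of all probesets lower at the high dose without overlap. Probesets of the same gene are not independent. The comparisons share arrays and are not independent of each other.

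The rest of the family held both falls and a rise at the high dose. The strongest fall was that of spp-23, which read 7.52, 8.40 and 7.99 at the high dose, against 10.99, 10.99 and 10.69 in control worms, a fall of 7.58 fold (adjusted p = 1.18e-04 from limma, log2 difference -2.92, SE 0.22). The level of spp-16 fell 2.25 fold (adjusted p = 0.00341 from limma), that of spp-31 fell 1.76 fold and that of spp-18 fell 1.56 fold, whereas spp-24 rose 1.63 fold (adjusted p = 0.00887 from limma). Of 12 other spp genes with a probeset of their own, 4 were down and 1 up regulated at the high dose, beside the 11.0% of all genes that fell and the 1540 of 17118 that rose, and their median log2 difference was -0.11. Among the genes that did not pass, the caenopore gene spp-12 had a high dose difference of -0.93 (95% interval -1.84 to -0.01, adjusted p = 0.153 from limma). That of spp-27, whose control mean was dim, was 1.92 (95% interval 0.60 to 3.24, adjusted p = 0.0511 from limma), with the high dose arrays, at 7.25, 7.20 and 7.28, above the control arrays, at 5.76, 4.22 and 5.98. The probeset shared by spp-22 and ZK867.2 was up regulated by a log2 difference of 0.64 (adjusted p = 0.0221 from limma over all probesets). At the low dose 0 of the 12 genes passed in limma, where 1.55% of all genes did, and spp-23, at -0.60 (95% interval -1.12 to -0.08), had the low dose arrays below the control arrays (adjusted p = 0.349 from limma).

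**Figure D3:**
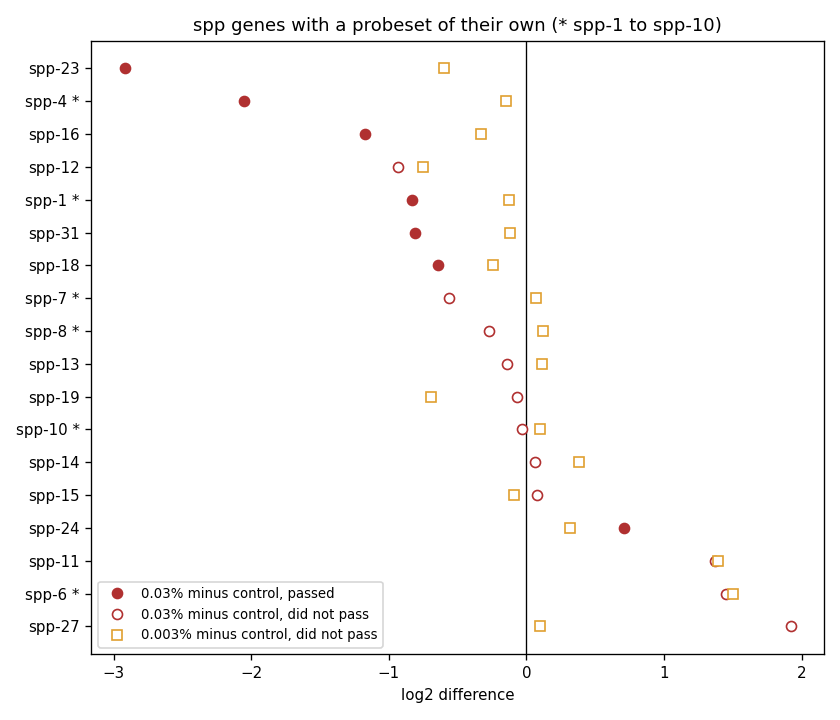
Log2 difference from control (horizontal axis) of the 18 spp genes with a probeset of their own, at the high dose (circles) and the low dose (squares), sorted by the high dose value. Filled symbols passed the test: spp-23, spp-4, spp-16, spp-1, spp-31 and spp-18 lower and spp-24 higher at the high dose, and none at the low dose.

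Among 12823 genes outside the family that were not dim on average, the pattern over the 9 arrays most like that of spp-4 was that of pqn-22, named for a glutamine and asparagine rich domain (Pearson r = 0.994), followed by pck-1, which encodes the phosphoenolpyruvate carboxykinase of gluconeogenesis (r = 0.991). At the high dose pqn-22 stood at 10.84 ± 0.22, against 12.25 ± 0.15 in control worms, and pck-1 at 10.87 ± 0.23, against 12.88 ± 0.12 (SD, n = 3 each). For spp-1 the most alike were C17G10.7 (r = 0.990) and Y66H1A.5 (r = 0.988). The high dose arrays of these 4 genes lay below all others, which follows from choosing them for likeness to spp-4 or spp-1 and is no separate result. An r of at least 0.9 was reached by 961 of the 12823 genes for spp-4 and by 799 for spp-1.

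Genes of related roles included both rises and falls at the high dose. Lysozymes, which cut bacterial cell walls, showed 2 rises and 5 falls among 16 measured genes, with a median log2 difference of 0.10. The invertebrate-type lysozyme gene ilys-4 rose 1.38 and lys-8 rose 0.70 on the log2 scale. By contrast lys-6 fell by 1.62 and lys-4 fell by 1.28, both read from _s_at probesets. Of 18 caenacin and antimicrobial nlp genes, which encode small secreted peptides, 8 rose and 1 fell, led by cnc-4, with a log2 difference of 3.82, and nlp-29, with 2.34, while cnc-3 fell by 0.85. Of those that passed, cnc-2, cnc-3, nlp-28, nlp-29, nlp-30 and nlp-31 were read from _x_at probesets and nlp-33 from an _s_at probeset. Such probesets may also detect related transcripts, so that the 8 rises may not be separate readings. In limma 0 of 5 antibacterial factor (abf) genes passed. Of 11 listed sphingolipid hydrolases of the lysosome, the enzyme class that saposins serve in mammals, 7 were measured. The genes gba-1, gba-2, gba-3 and gba-4 were not among them. In all 1 of the 7 rose and 3 fell. The acid sphingomyelinase genes asm-2 and asm-3, both read from _s_at probesets, fell by 1.43 and 1.04 on the log2 scale. The gene asm-1 rose by 0.68. Of 13 regulators of intestinal defence genes 7 rose and 0 fell, among them the signalling adaptor gene tir-1 (0.93) and the GATA factor gene elt-7 (0.92). Over all genes 1540 of 17118 rose and 1878 (11.0%) fell. At the low dose 0 genes of these 5 lists passed in limma, and with 1.55% of all genes called there, lists of this size hold few or none at the background share.

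**Figure D4:**
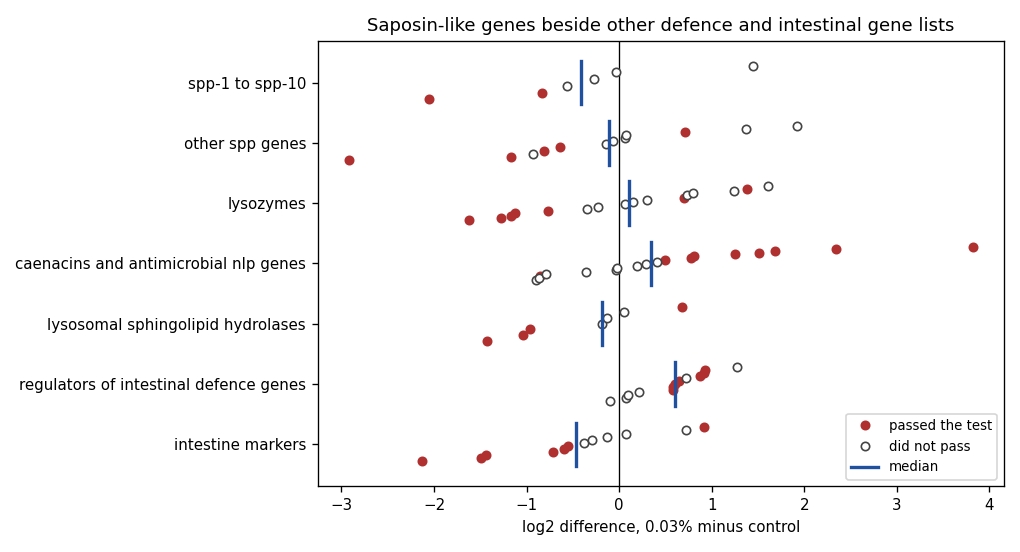
Log2 difference of single genes at the high dose minus control (horizontal axis) in the 6 saposin-like genes with a probeset of their own and in 6 other gene lists, with the median of each list as a vertical bar and genes that passed the test as filled points. The median lies at -0.42 for spp-1 to spp-10, at -0.47 for the intestine markers and at 0.60 for the regulators.

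Markers of the intestine also changed at the high dose. The counts of this paragraph stand beside the 11.0% of all genes that fell and the 1540 of 17118 that rose, 20.0% together, the share that 1 call among 5 markers also gives. Of 12 measured markers, 6 fell and 1 rose, with a median log2 difference of -0.47. The falls were led by the metallothionein gene mtl-2 (-2.13), the cathepsin B-like protease gene cpr-1 (-1.49) and the intestinal actin gene act-5 (-1.44). Here mtl-2 was read from an _x_at and act-5 from an _s_at probeset, which may also detect related transcripts. The GATA factors that define the intestine had positive differences, 0.72 for elt-2 (adjusted p = 0.0918 from limma, not passed) and 0.92 for elt-7, the marker that rose. The summed linear signal of the 12 markers was 225359 to 238622 on the control arrays, 203094 to 222442 on the low dose arrays and 126389 to 136418 on the high dose arrays, while 0 of the 12 passed in limma at the low dose, where 1.55% of all genes did. The summed signal of 6 hypodermis markers, of which 5 fell, was 30353 to 34360 on the high dose arrays, against 49840 to 57601 on the control arrays. Of 5 body wall muscle markers 2 fell, with sums of 56591 to 62656 at the high dose, against 66838 to 75247 in control worms. Of 5 neuron markers 1 rose, snb-1 (0.69), the brightest of them. The neuron sums were 15661 to 19108 at the high dose, against 11351 to 12074 in control worms. The other neuron markers did not pass, with differences of -0.19 for unc-119, -0.71 for the dim rgef-1, 0.09 for rab-3 and 0.34 for unc-64. The sums of pharynx and germ line markers overlapped between high dose and control arrays, with 1 rise and 1 fall among 5 pharynx markers and 3 falls among 5 germ line markers, and 0 of 3 coelomocyte markers passed in limma, with sums of 1195 to 1240 at the high dose, against 1523 to 1871 in control worms. A linear sum follows its brightest genes, for the intestine asp-1, cpr-1, mtl-2 and act-5. Of these asp-1 did not pass (log2 difference -0.13, adjusted p = 0.557 from limma). In RNA of whole worms, fewer cells of a type, less RNA per cell and changes of single marker genes cannot be told apart. The part of the marker shifts in the falls of spp-4 and spp-1 was not tested.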

How the data were processed

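The authors hybridized 9 RNA samples to Affymetrix C. elegans arrays and deposited a log2 signal for each of 22625 probesets. The methods name the RMA algorithm, while per the labels' processing notes Partek 6.4 and MAS5 were used, so the algorithm behind these values is not settled. The table holds 41 values below 0.

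Probesets were named from GEO's platform annotation and the RefSeq gene table (WBcel235), with 65 names resolved by symbol. The gene-level fit used no controls (77 probesets), none without a named gene (895) and none that several genes share (887), and from the remainder it took, for each of 17118 genes, the probeset whose mean over all arrays was highest. Probesets shared by several genes were taken from a second fit of all 22548 probesets apart from controls, adjusted over all of them. Both fits used limma 3.58.1 in R 4.3.3 with the 3 groups in a single model and no covariate, with 6 residual degrees of freedom and a prior of 1.45. The procedure was run on simulated data with independent genes, of which far fewer changed than were called here at the high dose. That run does not test the calls in these data. The members and gene lists were chosen with earlier results of these data known. Named genes are all members, other spp genes that passed, up to 2 largest rises and falls per list, and the 2 most alike genes for each member that passed at the high dose. Genes named beside these, such as spp-12, spp-27, elt-2, T08A9.13 and the intestinal and neuron markers, were chosen after their values were seen. Promoter motifs were not analysed here. Figures were drawn with matplotlib 3.10.9.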

Additional observations from a re-analysis of the deposited data

How the results depend on the processing

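Among the members with a probeset of their own, 2 passed at the high dose against control, 0 at the low dose against control and 2 at the high against the low dose. Each of these counts was the same when any of the 9 arrays was left out (2 to 2, 0 to 0 and 2 to 2) and with the replicate block (2, 0 and 2). The high dose count was 1 with the mean of a gene's probesets and 4 over all probesets with shared ones included. With the dimmer 50% of genes left out it was 3, and with a variance trend and robust estimation it was 3. The count between the doses was 4 with the dimmer 50% of genes left out and 4 with a variance trend and robust estimation. Over all genes, the low dose count of 266 was 533 with the dimmer 50% left out, 545 with the trend, 139 in a fit of low dose and control arrays alone, 160 with the replicate block and 170 to 223 with an array left out, while the counts with an array left out were 2523 to 3380 at the high dose, against 3418, and 2096 to 2532 between the doses, against 2880.

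The values gave no sign that the replicate numbers pair the samples. The deviations of same-numbered arrays correlated at -0.03 to 0.03 and those of different-numbered arrays at -0.05 to 0.04. How the cultures were set up cannot be told from these correlations. Of 525 alternative values for single members and shared probesets, 492 kept direction and side of the threshold, 11 no longer passed, 14 newly passed and 8 changed sign. Settings that alter only the variance, the threshold or the arrays of the uncompared group leave a log2 difference unchanged. The 492 therefore include values that could not change direction. The sign changes were in differences that had not passed. With arrays left out in turn, spp-10 at the high dose ran from -0.09 to 0.00, spp-7 at the low dose from -0.08 to 0.24 and spp-6 between the doses from -0.78 to 0.74, with sign changes without control replicate 2 (spp-10, 0.00), low dose replicate 3 (spp-7, -0.02), control replicate 3 (spp-7, -0.08), low dose replicates 1 and 2 (spp-6, 0.32 and 0.30) and high dose replicate 2 (spp-6, 0.74). In addition spp-10 at the high dose was 0.00 after quantile normalization, and spp-1 at the low dose was 0.18 with the mean of probesets. The causes were not tested.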
